A study of Mus musculus with 6 samples.

Results

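The 2 parental copies of the X-inactivation centre were compared within differentiating female mouse embryonic stem cells that had received a locked nucleic acid (LNA) oligonucleotide against Jpx RNA. The comparison rests on 2 of the 6 capture Hi-C libraries of the study, which were deposited as 1 map of the mus allele and 1 map of the cas allele with both libraries combined in each. Nothing measured was used to choose the libraries: they are those whose labels give transfection with the Jpx LNA at day 7. Capture Hi-C joins stretches of DNA that were neighbours in the fixed nucleus, pulls out a chosen region with probes and counts read pairs for every pair of genomic bins.

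All cells were of the strain labelled CAST/EiJ x 129S1, and mus and cas are taken here as the alleles of its 2 parents. Cells were grown on feeders of irradiated mouse embryonic fibroblasts, separated from them, differentiated without LIF, nucleofected on day 7 with the LNA and harvested 8 hours later. The other 2 day 7 libraries, from cells of the same strain and day that had received a scrambled LNA, were combined into a mus and a cas map in the same way and serve as the control background. The remaining 2 libraries, of day 0 and day 4, were not used. Each map is an average over all cells of the culture, and the sources used here do not give which allele is on the inactive X. A contact map of DNA carries no marker RNA and no measure of Jpx RNA, so neither the labelled cell type nor the depletion could be checked.

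As background, female mammals silence 1 of their X chromosomes, and the choice and onset of silencing are set in the X-inactivation centre. Xist encodes the noncoding RNA that coats the X to be silenced, and Tsix, transcribed across Xist on the opposite strand, represses it. Jpx and Ftx are noncoding genes beside Xist with reported activating roles, and Rlim encodes a ubiquitin ligase whose dosage promotes Xist activation. The centre is folded into 2 neighbouring contact domains that meet near Xist and Tsix, with the Tsix promoter in the domain that also holds Tsx, Chic1 and Cdx4, and the Xist promoter in the domain that holds Jpx and Ftx. The protein CTCF, which binds a long DNA motif in an orientation, is known to stop loop-forming cohesin at domain borders.

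All positions are those of mm9. The maps cover X:100215001-101265000 in 210 bins of 5 kb. Along the plus strand came Nap1l2 (X:100379515-100381979, a nucleosome assembly protein gene), Cdx4 (X:100516737-100525931, a homeobox gene), Chic1 (X:100551815-100591431), Tsx (X:100609806-100619919), Tsix (promoter at X 100626856), Xist (promoter at X 100678556, transcribed from the minus strand), Jpx (promoter at X 100688895), Ftx (X:100756246-100819093), Zcchc13 (X:100825925-100827003, a zinc-finger gene) and Rlim (promoter at X 101176623). The side with Nap1l2 to Tsix is called the Tsix side below and the side with Jpx to Rlim the Xist side, with the split after X 100670000, near the middle of Xist.

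The mm9 sequence of the region holds 11 matches to a short form of the CTCF core motif (CCA, 2 free bases, AGG, 1 free base, GGC) searched on both strands, in 10 of the 210 bins (4.76%). The 7 matches on the plus strand all lay between X 100381764 and X 100709676, and the 4 on the minus strand all lay to their right, between X 101040792 and X 101124504. The following 5 are shown because they lie at the Xist promoter or in the stretches that held the lowest and the highest insulation difference between the alleles. Each is given 5′ to 3′ on the strand of the match, with the match in capitals and 4 flanking bases in lower case.
Match at X:100469880-100469891, plus strand, in the stretch around Cdx4 with lower scores on mus: caggCCACCAGGTGGCagtt
Match at X:100679571-100679582, plus strand, 1.02 kb outside the Xist promoter and inside Tsix, in an annotated exon: taaaCCAGCAGGTGGCagca
Match at X:101110349-101110360, minus strand, in the stretch left of Rlim with higher scores on mus: tgagCCACTAGGGGGCgtat
Match at X:101123610-101123621, minus strand, in the same stretch: cttgCCAAGAGGCGGCaagg
Match at X:101124493-101124504, minus strand, in the same stretch: cacaCCAGGAGGGGGCatca
These letters are those of the reference genome, not of either allele of the cells, and a match is not a bound site. Among the matches not shown, X:100709665-100709676 on the plus strand also lies in a stretch of different insulation, that over Jpx and Ftx.

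The maps held 23705 contacts between bins on mus and 31830 on cas, and 60.3% and 53.2% of their bin pairs were at 0. The scrambled LNA maps held 27674 and 37347 contacts. Because each allele has 1 combined map per condition, the spread between libraries is unknown and no difference was tested against it. Every value is given with a 95% interval for counting error alone, and a value is called higher or lower where that interval excludes 0 and each map holds over 3 contacts. How duplicates were removed is not given, and any read pairs copied by PCR that remain are not independent contacts. The spread between libraries is also left out, so the true error is at least as wide. The intervals were not adjusted for the number of comparisons.

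The share of contacts assigned to mus was 42.7% over the region, with a median over bins of 42.2%. In 1 bin, X:100270001-100275000, at -406 kb from the Xist promoter, mus held 90.3% of the contacts, 566 against 61 on cas. The next highest bin was at 57.0%. Its contact was 3.00 times the mean for its separations on mus and 0.75 times on cas, and in scrambled LNA cells 2.82 and 0.76 times. Leaving out this bin and the 2 others whose mus share was outside 25% to 75% is given below wherever it moved a result. Those 2 were X:101005001-101010000, with 160 contacts on mus and 644 on cas, and X:101010001-101015000, with 257 and 793. Bin shares in the Jpx LNA and scrambled LNA cells had a Pearson r of 0.80 across 206 bins, which share their probes and sequence.

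**Figure D1:**
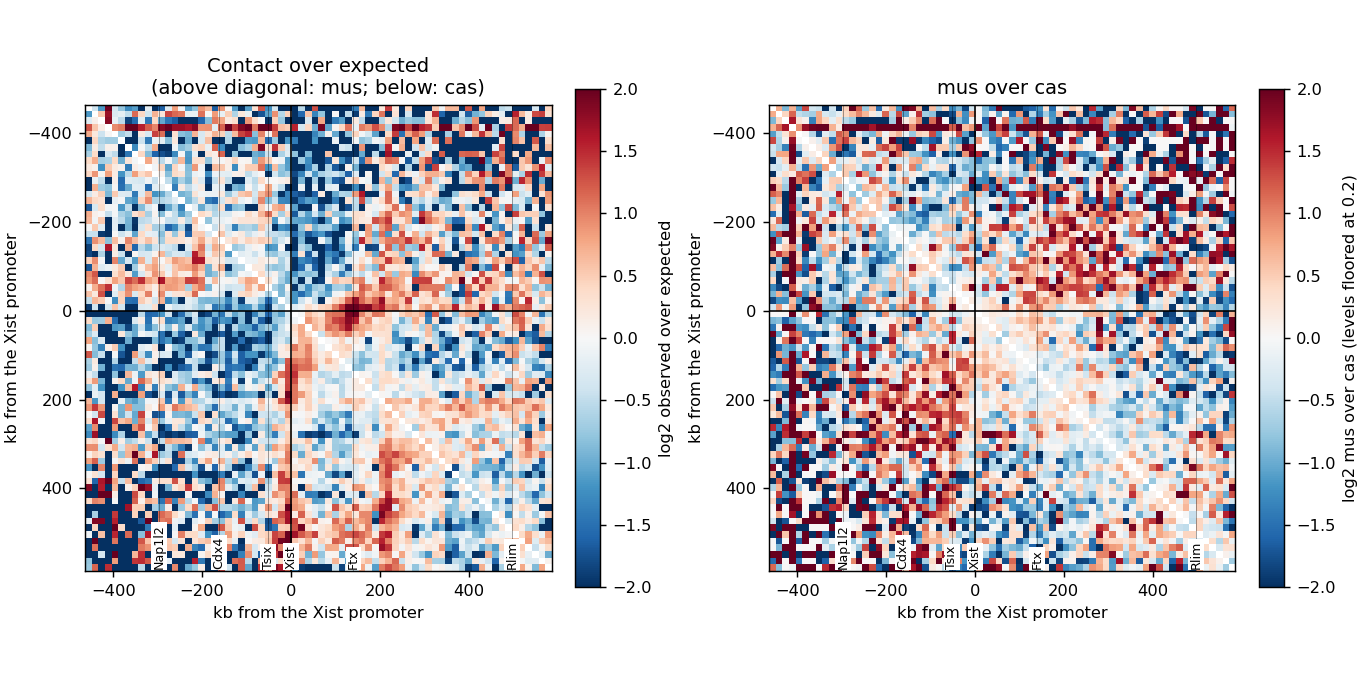
Contact in the Jpx LNA cells over the mean at equal separation, in log2 and averaged over blocks of 15 kb (left, mus above the diagonal and cas below it), and log2 of mus over cas (right), with both axes in kb from the Xist promoter. Contacts of the Xist promoter with Ftx are redder on mus (2.96 against 2.01), the quadrant that joins the sides holds more red than blue in the right panel (log2 ratio 0.19), and the stripe near -406 kb is the bin of uneven allele share.

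Contact across the centre was higher on mus. Between the Tsix side and the Xist side, mus reached 0.98 times and cas 0.86 times the mean contact of its own map at equal separation, from 4375 and 4774 contacts, a log2 ratio of 0.19 (0.10 to 0.27). Within the Tsix side, which holds Cdx4, Chic1 and Tsx, mus was lower, at 0.96 against 1.05, a log2 ratio of -0.13 (-0.22 to -0.05). Within the Xist side, from Jpx to Rlim, mus was also lower, at 1.06 against 1.18, a log2 ratio of -0.16 (-0.21 to -0.12). Since each map is divided by its own mean, a gain in one class must be met by a loss elsewhere, and the 3 values are not independent. Pairs with a bin on each side carried 21.4% of all signal on mus (20.8% to 22.01%) and 17.5% on cas (17.0% to 17.9%).

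The direction between the sides held in all 11 alternative settings, while its size ran from 0.17 to 0.53, the highest with the median in place of the mean as expectation. Under that setting the sign within the Xist side turned, to 0.07 (0.01 to 0.12). Without the bins of uneven allele share the log2 ratio within the Tsix side was -0.22 (-0.31 to -0.13), and with recovered contacts in place of the corrected signal it was no longer called, at -0.05 (-0.13 to 0.03). In scrambled LNA cells the log2 ratio between the sides was 0.18 (0.10 to 0.26). The difference of the 2 ratios was 0.0064 (-0.11 to 0.12), so no effect of the Jpx LNA on this allelic difference was detectable at this depth, and changes up to those bounds remain possible.

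The mus allele made more of its contacts at short range and at the far end of the region, and fewer at intermediate separations. Contacts from 10 kb to under 50 kb made up 35.3% of signal on mus and 31.2% on cas, a difference of 4.15 percentage points (3.19 to 5.12). From 50 kb to under 100 kb the shares were 16.8% and 17.1%, a difference of -0.27 points (-1.04 to 0.49) that was not called. From 100 kb to under 200 kb mus was at 18.1% and cas at 19.7%, and from 200 kb to under 500 kb mus was at 21.1% and cas at 25.6%. The last of these is the largest allelic difference of the 5 classes, at -4.49 points (-5.32 to -3.66). At 500 kb or more, the direction turned again, with 8.72% on mus and 6.47% on cas, a difference of 2.24 points (1.65 to 2.84).

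The slope of log10 mean signal on log10 separation from 10 kb to 500 kb was -0.84 on mus and -0.73 on cas, a difference of -0.11 (-0.13 to -0.08). Contact therefore fell more steeply with distance on mus over that range. In scrambled LNA cells the slopes were -0.80 and -0.76, and their difference was -0.05 (-0.07 to -0.02). The allelic difference in slope was larger in the Jpx LNA cells, by -0.06 (-0.10 to -0.02). Of the separation classes, the one from 200 kb to under 500 kb had an allelic difference that departed from that of scrambled LNA cells, -4.49 against -2.72 points, a change of -1.77 points (-2.90 to -0.64). For the other 4 classes the interval of the change included 0, and the class at 500 kb or more changed by 0.52 points (-0.28 to 1.33).

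**Figure D2:**
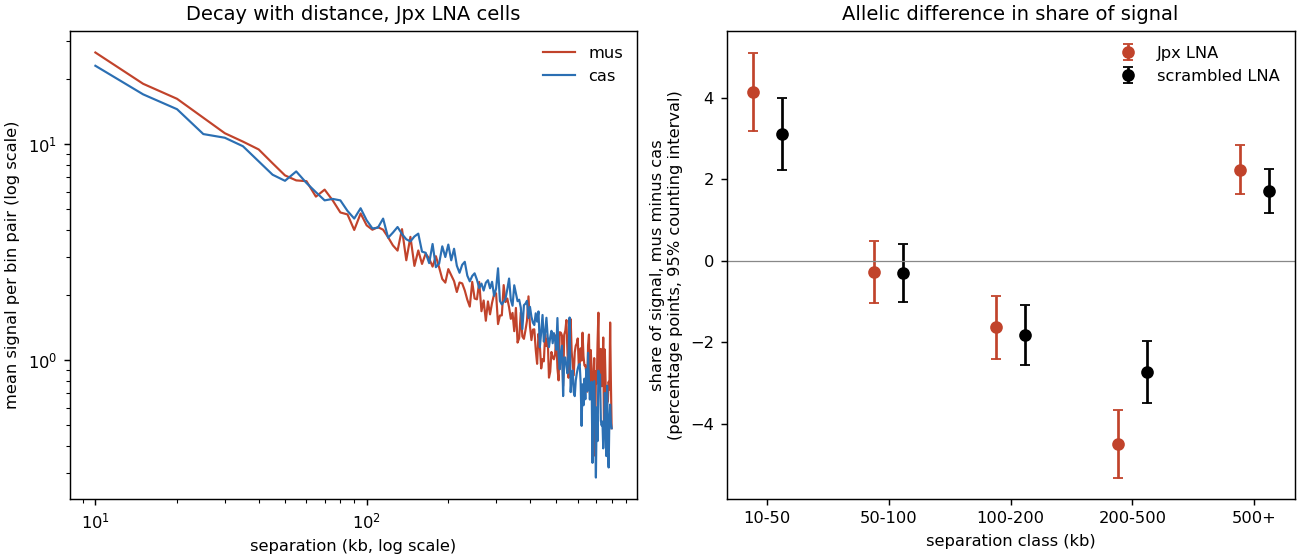
Left, mean signal per bin pair against separation in kb on mus and cas in Jpx LNA cells, both axes logarithmic. Right, the mus minus cas difference in share of signal by separation class, in percentage points with 95% counting intervals, where Jpx LNA cells lie below scrambled LNA cells from 200 kb to under 500 kb (-4.49 against -2.72).

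Insulation was read at every bin with full windows as a score: the mean signal joining the 100 kb on its left to the 100 kb on its right, in log2 and centred on the median of the map. A low score marks a position across which few contacts pass, as at a domain border. Of 168 bins, 39 were higher and 38 lower on mus, so that 45.8% were called, against 48.8% in scrambled LNA cells. Windows of neighbouring bins overlap, so these calls fall into 6 stretches rather than 77 separate events. With recovered contacts in place of the corrected signal, 112 bins were higher on mus. Over all 168 bins the median difference was 0.04, and differences ran from -0.74 to 0.41. The score spread less over bins on mus (SD 0.39) than on cas (SD 0.45), a description with no interval.

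The strongest border lay inside Tsix, next to the 3′ end of Xist, on both alleles. The lowest bin of either map was X:100650001-100655000, at -0.78 on mus and -0.97 on cas, a difference of 0.19 (-0.02 to 0.40) that was not called. At the Xist promoter the scores were -0.56 and -0.70, a difference of 0.14 (-0.04 to 0.32). At the Tsix promoter they were -0.51 and -0.52, a difference of 0.0030 (-0.19 to 0.20). Around the border 1 bin was called with windows of 100 kb, X:100640001-100645000, higher on mus by 0.24 (0.03 to 0.45). The Xist promoter was called higher on mus in 3 of 8 alternatives, at 0.53 (0.42 to 0.63) with windows of 200 kb, 0.59 (0.42 to 0.76) with recovered contacts and 0.23 (0.03 to 0.44) with balanced bin totals. The Tsix promoter was called in 2, at 0.19 (0.06 to 0.32) with windows of 200 kb and 0.41 (0.22 to 0.59) with recovered contacts.

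To the right of the border the alleles parted. From X 100680001 to X 100800000, a stretch that starts just beyond the Xist promoter and holds Jpx and most of Ftx, all 24 bins were higher on mus, by 0.13 to 0.36. At the Jpx promoter the score was -0.13 on mus and -0.47 on cas, a difference of 0.34 (0.18 to 0.49), so the low scores around the border reached over Jpx on cas and less so on mus. The difference at Jpx was 0.86 (0.71 to 1.01) with recovered contacts and 0.60 (0.51 to 0.70) with windows of 200 kb. At the middle of Ftx the scores were 0.61 and 0.48, a difference of 0.13 (0.02 to 0.24), which was not called with windows of 50 kb and was 0.60 with recovered contacts and 0.48 with windows of 200 kb. The highest mus score of the map, 1.16, lay in this stretch, at X:100750001-100755000, next to Ftx. Zcchc13, beyond the far end of Ftx, was not called, at -0.11 on mus and 0.0022 on cas, a difference of -0.11 (-0.25 to 0.03), and the sign of that difference turned with windows of 200 kb and with recovered contacts.

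Around Cdx4 the order was the opposite and the difference larger. From X 100465001 to X 100560000, 19 bins were lower on mus, by 0.25 to 0.74. At Cdx4 itself the score was 0.11 on mus and 0.68 on cas, a difference of -0.57 (-0.75 to -0.40) from 443 and 925 contacts. It was called in all 8 alternatives, but was smaller with recovered contacts, at -0.28 (-0.45 to -0.11), and with windows of 200 kb, at -0.36 (-0.48 to -0.23). The lowest difference of all bins was at X:100490001-100495000, at -0.20 on mus and 0.54 on cas, a difference of -0.74 (-0.95 to -0.55). Relative to the median of its map, mus thus had fewer contacts that pass over this part of the Tsix side. Chic1 and Tsx, closer to the border, were not called, with differences of 0.05 (-0.14 to 0.23) and -0.15 (-0.33 to 0.03), and the sign at Tsx turned with recovered contacts. At Nap1l2, near the left end, the difference was 0.11 (-0.16 to 0.38).

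Farther right, 2 more stretches differed in opposite directions. Scores from X 100915001 to X 101010000 were lower on mus in 19 bins, by 0.13 to 0.40, and in the lowest of them, X:100970001-100975000, mus was at 0.38 and cas at 0.78. The 100 kb windows of these bins take in X:101005001-101010000 or X:101010001-101015000, the bins of low mus share, whose part here was not tested. Scores from X 101100001 to X 101155000, just left of Rlim, were higher on mus in 11 bins, by 0.26 to 0.41. A local minimum on both alleles, X:101130001-101135000, lay in this stretch, 44.1 kb from the Rlim promoter, with -0.27 on mus and -0.66 on cas, a difference of 0.38 (0.16 to 0.60). This minimum was deeper on cas. On mus the minimum at X:100460001-100465000, beside the stretch around Cdx4, was slightly lower, at -0.29. The stretch left of Rlim also holds 3 of the 4 minus-strand motif matches, which were printed above because they lie there. Those at X 101123610 and X 101124493 share a bin. Called bins made up 45.8% of all bins with a score, and a link of matches to insulation was not tested. In scrambled LNA cells the mus minimum left of Rlim was at X:101100001-101105000, at -0.37. A smaller stretch of 3 bins from X 100885001 to X 100900000 was also higher on mus. Rlim itself lies too close to the edge of the map for full windows.

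The profile of allelic differences resembled that of scrambled LNA cells. Of the bins called in the Jpx LNA cells 90.9% were called in scrambled LNA cells, and of those called there 85.4% were called in the Jpx LNA cells, 70 bins that all had the same sign in both. Across the 168 bins the differences of the 2 conditions had Pearson's r of 0.91 and Spearman's rho of 0.89, as a description, since windows overlap and the maps share the probes. The conditions share no library. The mus share of contacts in the 6 stretches was between 37.8% and 45.3%, and its part in the differences was not tested. In 5 bins (2.98%) the allelic difference departed from that of scrambled LNA cells, 4 of them adjoining, from X 100405001 to X 100425000, and the other at X:100490001-100495000.

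**Figure D3:**
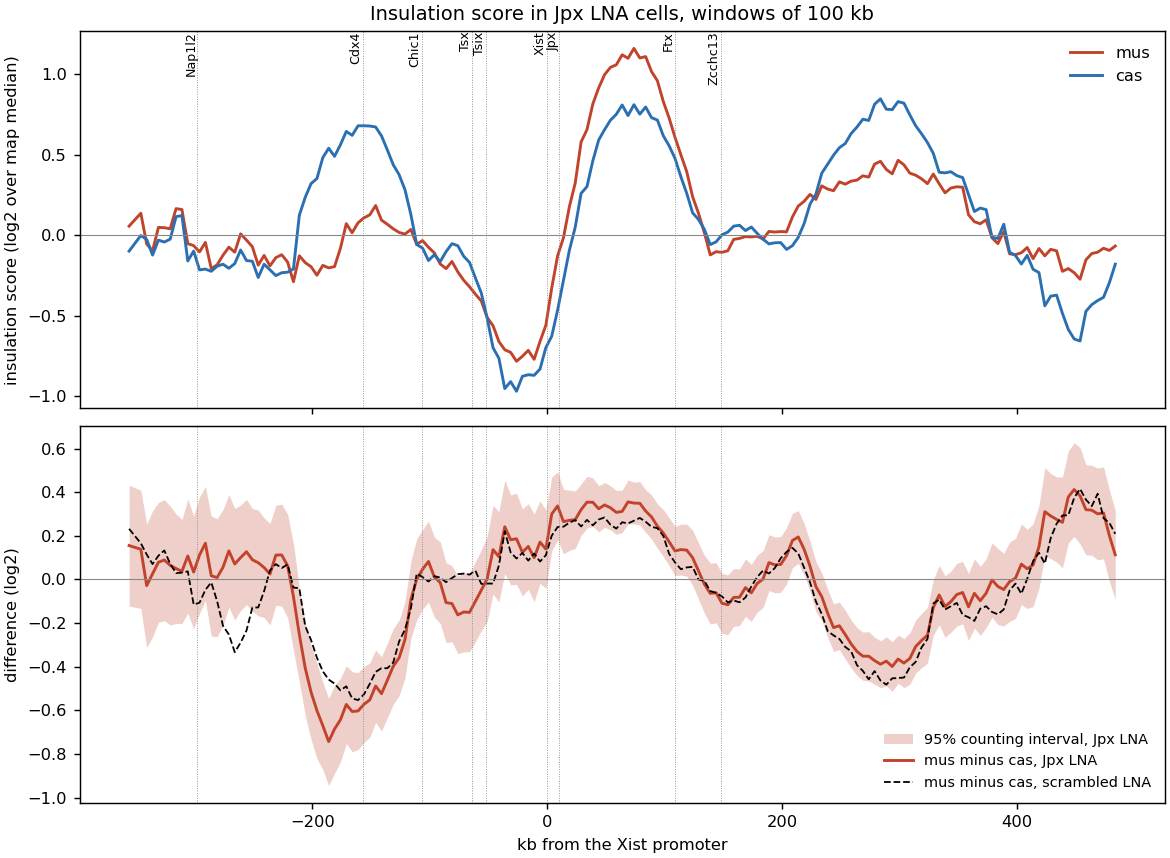
Upper panel, insulation score (log2) on mus and cas in Jpx LNA cells against kb from the Xist promoter. Lower panel, the mus minus cas difference with its 95% counting interval (shaded) and that of scrambled LNA cells (dashed), which is low around Cdx4 (-0.57 at Cdx4 in Jpx LNA cells) and positive at Jpx (0.34).

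For contacts between named loci, the ratio of signal to the mean at equal separation was averaged over the bin pairs that join their windows, which reach 10 kb beyond the promoter (Xist, Tsix, Jpx, Rlim) or the gene body (the other 6) in either direction. Of 45 pairs, Nap1l2 with Rlim had 2 contacts on cas and was not called. Of the 44 others, 8 were higher and 7 lower on mus, 34.1%, against 21.4% of all rectangles of the same shapes and separations over the region (11.2% higher and 10.2% lower). Windows of Tsx and Tsix, of Xist and Jpx, and of Ftx and Zcchc13 overlap, so the 8 higher pairs share bin pairs and are not 8 separate differences. With the median as expectation 2 pairs were lower, but that setting gave a value for 26 pairs and none for 4 of the 7, with flanks of 5 kb 4 were lower, and with recovered contacts 13 were higher. Across the border 4 of 19 pairs were higher and 0 lower, among the 9 pairs with Xist 2 were higher and 0 lower, within the Tsix side 0 of 10 were higher and 5 lower, and within the Xist side 2 of 6 were higher and 2 lower.

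Xist contacted Ftx and Zcchc13 more on mus. Xist with Ftx was at 2.96 times the expected contact on mus and 2.01 times on cas, from 482 and 422 contacts, a log2 ratio of 0.56 (0.36 to 0.75). Xist with Zcchc13 was at 4.49 on mus and 2.71 on cas, a log2 ratio of 0.73 (0.42 to 1.04). On cas this pair exceeded every rectangle of the same shape in the region. Both alleles thus held a contact of the Xist promoter with Ftx and Zcchc13 far above the mean for its distance, and it was 1.47-fold and 1.66-fold stronger on mus, ratios at the 93.3 and 87.4 percentiles of their shapes. In scrambled LNA cells the same pairs were at 2.84 against 1.87 and at 4.66 against 2.91.

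Jpx, which lies 10 kb from Xist and whose window overlaps that of Xist, gave a similar picture. Jpx with Ftx was at 2.97 on mus and 2.00 on cas, a log2 ratio of 0.57 (0.38 to 0.76), and Jpx with Zcchc13 at 3.41 and 2.53, a log2 ratio of 0.43 (0.10 to 0.77). The ratios were at the 95.6 and 77.7 percentiles of their shapes. The second of these lost its call under 2 of 11 alternatives, scaling to the map total and flanks of 5 kb. Xist with Jpx itself was at 0.86 on mus and 0.73 on cas, below the mean for their separation on both alleles, and was not called at 0.23 (-0.14 to 0.61).

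The Tsix promoter and Tsx reached across the border to the same 2 loci more often on mus. Tsx with Ftx was at 0.94 on mus and 0.47 on cas, from 123 and 91 contacts, a log2 ratio of 1.02 (0.59 to 1.45), and no rectangle of the same shape had a higher ratio. Tsx with Zcchc13 was at 1.40 and 0.65, a log2 ratio of 1.10 (0.44 to 1.78). Tsix with Ftx was at 0.91 and 0.50, a log2 ratio of 0.88 (0.38 to 1.38), and Tsix with Zcchc13 at 1.54 and 0.88, a log2 ratio of 0.81 (0.12 to 1.5). The ratios of Tsx with Zcchc13, Tsix with Ftx and Tsix with Zcchc13 were at the 92.5, 96.4 and 83.2 percentiles of their shapes. On cas all 4 pairs were thus below the mean contact for their distance, and on mus the 2 with Zcchc13 were above it. Tsix with Ftx was not called with flanks of 5 kb, and Tsix with Zcchc13 not under 3 alternatives. Tsix with Xist was not called, at 0.59 on mus and 0.41 on cas, a log2 ratio of 0.53 (-0.14 to 1.21). Of Chic1 and Cdx4 with Ftx and Zcchc13, none of the 4 pairs was called, the highest being Cdx4 with Zcchc13 at 0.82 (-0.02 to 1.67).

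The pairs that were lower on mus had both loci on the same side. In the Tsix side, Nap1l2 contacted Chic1 at 0.71 on mus and 1.40 on cas, a log2 ratio of -0.98 (-1.67 to -0.34). Nap1l2 with Tsx was at 0.73 and 1.71, a log2 ratio of -1.23 (-2.15 to -0.38), and Nap1l2 with the Tsix promoter at 0.65 and 1.93, a log2 ratio of -1.56 (-2.82 to -0.48) from 9 contacts on mus and 42 on cas. The windows of Tsx and Tsix overlap, so these values share bin pairs. The last of them rests on few contacts, and Nap1l2 with Cdx4 was not called, at 0.98 and 0.75. Chic1 was lower on mus with Tsx, at 0.92 against 1.11, a log2 ratio of -0.27 (-0.54 to -0.0005), and with Tsix, at 0.82 against 1.07, a log2 ratio of -0.38 (-0.76 to -0.01). These 2 intervals nearly touched 0, and the calls were lost under 8 and 5 of 11 alternatives.

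In the Xist side, the pairs that were lower on mus were those of Rlim. Ftx with Rlim was at 1.17 on mus and 1.72 on cas, from 49 and 112 contacts, a log2 ratio of -0.55 (-1.09 to -0.04). Zcchc13 with Rlim was at 1.24 and 2.17, a log2 ratio of -0.81 (-1.62 to -0.05), a call that was lost under 4 of 10 alternatives. Neither ratio stood out for its shape: they were at the 30.3 and 17.1 percentiles of rectangles of the same shape, of which 46.7% and 20.5% were called. The insulation minimum near X 101130001 lies between these loci and the Rlim promoter. It was deeper on cas, at -0.66 against -0.27 on mus, although contact of both pairs was higher on cas. A link between the minimum and these pairs was not tested. The promoters of Xist and Jpx with Rlim were not called. Xist with Rlim was at 1.99 and 2.93, a log2 ratio of -0.55 (-1.40 to 0.25), and Jpx with Rlim at 1.73 and 3.00, a log2 ratio of -0.79 (-1.72 to 0.06). Both were called in scrambled LNA cells, at -1.03 (-1.75 to -0.34) and -1.41 (-2.33 to -0.57). The changes between conditions, 0.47 (-0.55 to 1.49) and 0.62 (-0.54 to 1.78), were not distinguishable from 0, so a difference between conditions is not shown for either pair. Jpx with Rlim was called in 5 of 10 alternatives and Xist with Rlim in 1 of 10.

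Of the 15 calls, 10 were also made in scrambled LNA cells and 13 had the same sign there. The 8 higher pairs were all called there, but of the 7 lower pairs only Nap1l2 with Chic1 and Ftx with Rlim were. Nap1l2 with Tsx was at -0.48 (-1.17 to 0.18) there, Nap1l2 with Tsix at -0.47 (-1.41 to 0.41) and Zcchc13 with Rlim at -0.62 (-1.36 to 0.09). Chic1 with Tsx and Chic1 with Tsix had the other sign there, at 0.10 and 0.01. Of the 44 pairs, the allelic difference departed from that of scrambled LNA cells in 1 (2.27%), Chic1 with Tsx, by -0.37 (-0.74 to -0.01). The calls of 6 pairs, Xist, Jpx and Tsx with Ftx, Xist and Tsx with Zcchc13, and Ftx with Rlim, were kept in every alternative that gave a value. The mus share of contacts in the bins of the 10 loci ran from 40.8% at Rlim to 48.3% at Jpx, and its part in the pair differences was not tested.

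**Figure D4:**
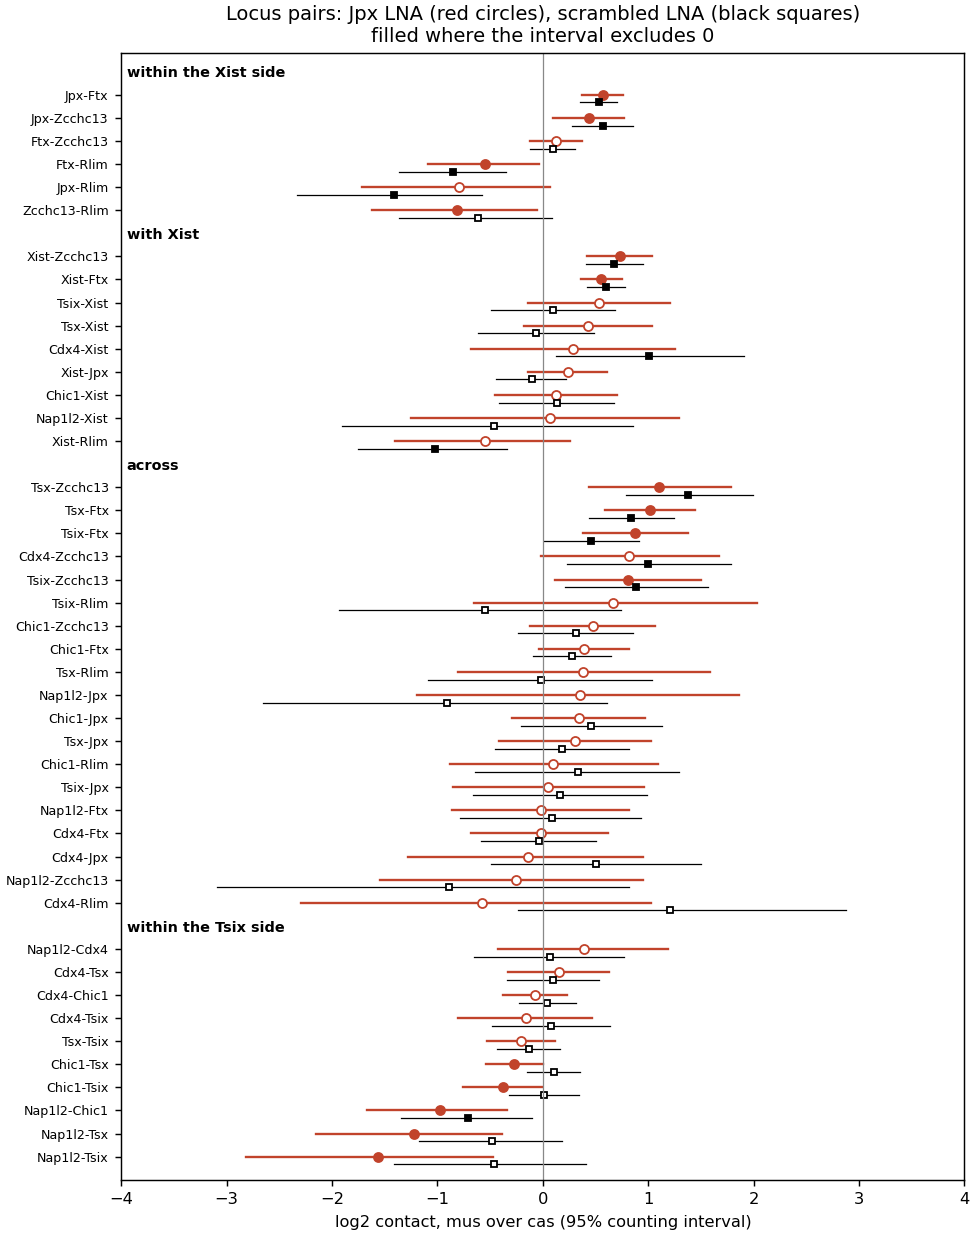
Log2 ratio of mus over cas with its 95% counting interval for the 44 locus pairs with over 3 contacts in each map, in Jpx LNA cells (red circles) and scrambled LNA cells (black squares), filled where the interval excludes 0. The 8 filled red circles above 0 are Xist, Jpx, Tsx and Tsix with Ftx and Zcchc13, and the 7 below 0 are pairs of Nap1l2, Chic1 and Rlim, with Nap1l2 and Tsix lowest at -1.56.

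Profiles from single promoters placed these pairs along the whole region, in 20 consecutive segments of 50 kb. For reference, squares of 50 kb by 50 kb over the map were higher on mus in 13.8% and lower in 12.9%. Such squares are larger than a promoter window by a segment, and no share is given for that shape at other positions. The counts below are therefore a description and single out no promoter. From the Xist promoter, 3 segments were higher and 2 lower on mus (25% of 20). The higher ones were consecutive, from X 100715001 to X 100865000, and peaked in X:100815001-100865000, at 3.63 times the expected contact on mus and 2.55 on cas. The lower ones held Rlim and its left flank, with 1.95 on mus and 3.37 on cas in X:101165001-101215000, a log2 ratio of -0.79 (-1.37 to -0.22). All 5 segments were called the same way in scrambled LNA cells. Relative to the expected contact, the Xist promoter thus had more contact around Ftx and Zcchc13 on mus than on cas, and more around Rlim on cas than on mus. The locus pair of Xist with Rlim was not called, at -0.55 (-1.40 to 0.25), and the segments were not read under the alternative settings.

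From the Jpx promoter 1 segment was higher and 2 were lower (15.8% of 19 with over 3 contacts), with 3.14 on mus and 2.09 on cas in X:100765001-100815000 at Ftx, and 1.70 and 2.84 in X:101165001-101215000 at Rlim. From the Rlim promoter 0 segments were higher and 2 were lower (11.1% of 18), X:100665001-100715000 with the Xist and Jpx promoters, at 1.91 and 2.86, and X:100815001-100865000, at 1.08 and 1.82. In scrambled LNA cells 5 segments were called from Jpx and 3 from Rlim.

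From the Tsix promoter 6 segments were higher and 2 lower (40% of 20). In scrambled LNA cells 3 segments were called from Tsix, all higher, against 10 from Xist, 4 higher and 6 lower, so the number called from a promoter did not keep its order between conditions, and the change was not tested. All 6 higher segments lay across the border, from X 100715001 on. The largest ratio was in X:100815001-100865000, which holds Zcchc13, at 1.70 on mus and 0.67 on cas, a log2 ratio of 1.35 (0.79 to 1.91), followed by X:100865001-100915000, at 1.98 and 0.87. Higher contact on mus reached as far as X:101065001-101115000, at 2.01 and 0.97 from 29 and 21 contacts, a log2 ratio of 1.05 (0.14 to 1.98) against 0.25 (-0.82 to 1.35) in scrambled LNA cells. The 2 lower segments lay on its own side, X:100565001-100615000 at 1.00 and 1.32, and X:100315001-100365000 at 0.90 and 1.83 from 14 and 45 contacts. Of the segments called from Tsix, X:100815001-100865000 and X:100865001-100915000 were also called higher in scrambled LNA cells. Their log2 ratios there were 0.78 (0.25 to 1.32) and 1.41 (0.92 to 1.91). The others were not called there, and the changes were not tested.

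**Figure D5:**
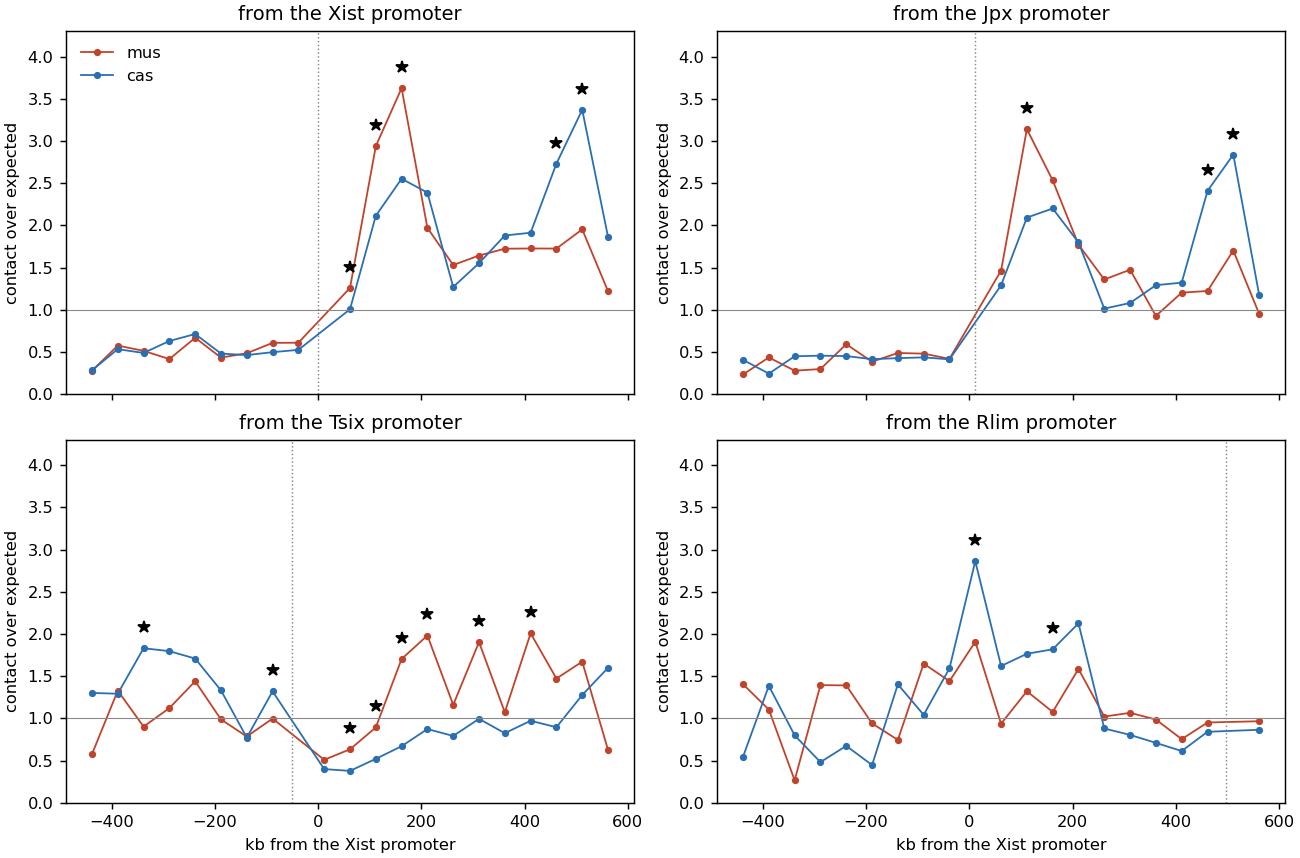
Contact over expected contact in 50 kb segments from the Xist, Jpx, Tsix and Rlim promoters on mus and cas in Jpx LNA cells, against kb from the Xist promoter, with a dotted line at each viewpoint and a star where the counting interval excludes 0. From Tsix, mus lies above cas at Zcchc13 (1.70 against 0.67), and from Xist, cas lies above mus at Rlim (3.37 against 1.95).

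Squares of 30 kb were also slid over the map at every position 50 kb or farther from the diagonal, and 15903 of 18145 such windows held over 3 contacts in each map, of which 1469 were higher and 1056 lower on mus (15.9%, and 16.3% in scrambled LNA cells). Scaled to map totals, 1069 were higher and 1834 lower, so which direction held more windows depended on the scaling. Of the 3 lowest windows, the one that held named loci joined Ftx (X:100765001-100795000) to the left flank and 3′ end of Rlim (X:101135001-101165000), with 4 contacts on mus and 42 on cas, a log2 ratio of -2.61 (-4.59 to -1.12), and 12 and 44 in scrambled LNA cells, a log2 ratio of -1.27 (-2.36 to -0.30). The other 2 lowest held no named locus, at -2.73 (-4.86 to -0.94) from 4 and 11 contacts and -2.55 (-4.73 to -0.79) from 4 and 15. In scrambled LNA cells they were at -0.91 (-2.69 to 0.65) and 0.59 (-0.65 to 1.93). Among the 3 highest, the 2 with the highest ratios include the uneven bin X:100270001-100275000. In scrambled LNA cells these were at -0.86 (-2.57 to 0.84) and 0.05 (-0.97 to 1.12). The third joined Chic1 (X:100565001-100595000) to X:101070001-101100000, with 13 and 5 contacts, a log2 ratio of 2.41 (0.82 to 4.26), against 0.75 (-0.51 to 2.05) in scrambled LNA cells.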

How the data were processed

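Each deposited map gives a signal for every pair of 5 kb bins, on mm9 per the file headers, and per the labels each allelic map combines both libraries of its condition. Nuclei were digested with MboI and captured with RNA probes of 120 bp, with 12 PCR cycles, per the labels' protocols. The submitters' processing notes name Juicer 1.5.3, HOMER 4.8, Novoalign 3.00.02 and cutadapt 1.2.1. The sources used here do not give how alleles were assigned, duplicates removed or signal corrected. The deposited probe list (1067 probes) left 22 bins without a probe.

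The deposited signal was not whole. After multiplication by 1 factor per bin, between 99.97% and 100.0% of values above 0 came out whole (tolerance 0.01), and these recovered contacts gave all intervals: beta quantiles of the conditional binomial for a ratio, with the effective number of contacts of a weighted sum, the expectation and factors held fixed. Differences of shares, slopes and log2 ratios used summed variances. The interval of the slope was added after the data were examined. Only separations of at least 10 kb were used. For the sides, locus pairs, profiles and 30 kb windows, signal was divided by the mean of its own map at equal separation. Insulation scores, shares of signal and slopes used the signal without this division. The 4 bins under 0.25 of the median total in any map were left out. Genes were placed with GENCODE on mm9, which lists Jpx as Enox and Ftx as B230206F22Rik. Recovery of contacts and the ratio interval of rectangles were tested on simulated data, the interval with equal bin factors and a known expectation. The intervals of insulation, slope, shares and differences between conditions were not simulated. Python 3.11.15, numpy 2.4.6, scipy 1.17.1 and matplotlib 3.10.9 were used.

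The members, the 10 loci and the rule for named positions were chosen with earlier results of these data known. That rule takes the loci and their pairs, local insulation minima, the 5 highest and 5 lowest insulation differences at least 100 kb apart, the 3 highest and 3 lowest non-overlapping 30 kb windows with 10 or more contacts, and the 4 promoter profiles, of which the text describes a part. The motif search and 2 alternatives, summed signal over summed expectation and bins with an even allele share only, were chosen after seeing the data.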

Additional observations from a re-analysis of the deposited data

Results flagged for a closer look

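The following are results where the allelic difference in Jpx LNA cells departed from that in scrambled LNA cells, by the counting interval of the difference itself, with no adjustment for the number of comparisons and no replicate maps. The slope of decay differed between the alleles by a further -0.058 in the Jpx LNA cells, with slopes of -0.84 and -0.73 against -0.80 and -0.76. The share of signal from 200 kb to under 500 kb differed by a further -1.77 percentage points. The slope covers the bin pairs of this class, so the slope and this share are not independent results. Of 44 pairs, 1 departed (2.27%). Chic1 with Tsx had a log2 ratio lower by -0.374 than in scrambled LNA cells, at -0.27 against 0.10. Its call in the Jpx LNA cells was lost under 8 of 11 alternatives.

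In insulation, 4 adjoining bins between Nap1l2 and Cdx4 departed, by 0.384 in the bin from X 100405001, 0.404 from X 100410001, 0.390 from X 100415001 and 0.361 from X 100420001. In scrambled LNA cells mus was lower than cas in these bins, by -0.25, -0.33, -0.29 and -0.23, and each was called. In Jpx LNA cells the differences were 0.13, 0.07, 0.10 and 0.13, and none was called. The windows of these bins overlap, so they count as 1 position. The bin from X 100490001, with the lowest difference of the map, departed by -0.285, at -0.74 against -0.46, with mus at -0.20 in the Jpx LNA cells and 0.08 in scrambled LNA cells, and cas at 0.54 and 0.53.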

How the results depend on the processing

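No paired analysis was possible because each deposited map combines both libraries of its condition. For the same reason the planned block on library number and leaving out each library in turn were not run, and the spread between libraries stays unknown. At this depth 2242 of 18145 windows of 30 kb held 3 contacts or fewer in a map and could not be called.

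The higher contact between the sides on mus was called in all 11 alternatives (0.17 to 0.53), the slope difference in all 6 that apply (-0.12 to -0.09) and the share at 500 kb or more in all 6 (1.56 to 4.07 points). Directions that turned were contact within the Xist side under a median expectation (0.066), insulation at Tsx (0.29) and Zcchc13 (0.36) with recovered contacts without bin factors, and at Zcchc13 with 200 kb windows (0.17). The causes were not tested. Under a median expectation, 2 pairs were lower on mus of 26 with a value, and 684 windows were higher (16.4%) and 178 lower (4.27%) of 4172 tested, against 9.24% and 6.64% with the mean, so the balance of directions moved too. Scaled to map totals, 1834 windows were lower. Recovered contacts without bin factors gave 112 bins of higher insulation and 13 higher pairs, flanks of 5 kb gave 4 lower pairs, and windows of 50 kb gave 2282 higher and 2136 lower of 16594. Without bins of uneven allele share, 46 bins were higher and 33 lower of 166 in insulation, 9 pairs were higher and 6 lower, and between the sides the value was 0.20.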
